A study of Mus musculus with 16 samples.

Results

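Type I interferon induced genes were followed through the non-tumour colon of ApcMin/+ mice: Ifit1, Ifit2, Ifit3, Isg15, Oas2, Rsad2, Ddx58, Ifih1, Irf7 and Usp18. These 10 genes were chosen by name, as those probes whose gene name on the array is one of the 10, out of 34947 named genes or transcripts on the array and 24543 that were bright enough to be tested. They are read by 13 probes, and all 10 genes were well above background on all 16 arrays.

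All mice carried the ApcMin/+ mutation, which inactivates a copy of the tumour suppressor Apc throughout the body and leads to intestinal polyps. The 5-ASA group comprised 6 mice that drank 1.5% dextran sulphate sodium (DSS), a polymer that injures the colonic lining, over 3 days and were treated with 5-aminosalicylic acid (5-ASA), an anti-inflammatory drug of ulcerative colitis. The Control group comprised 6 mice with the same DSS course and no drug, and the Sham group 4 mice without DSS or drug. The labels disagree on the dosing: their protocol has 5-ASA, or saline for Control, placed into the colorectum over 28 days, whereas their sample descriptions have 5-ASA in the drinking water, or water alone for Control, for the 25 days that followed DSS. Colon without visible tumour was taken on day 28, so values of the 5-ASA and Control mice describe tissue 25 days after DSS ended, and a 5-ASA group without DSS was not analysed here. The mice are named below by group and replicate number (Sham 1 is replicate 1 of Sham), and the labels call the replicates biological. The labels also give each mouse a diarrhea score at day 28, between 0 and 1.5.

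Values are log2 of the spot intensity relative to the 75th percentile of the mouse's own array, so 1 unit is a doubling and 0 is the level that 75% of probes lie below. Each gene is shown by its brightest probe, and a level is compared between mice and never between genes. Arrays in the first position row of the slides had 59.8% to 65.2% of spots well above background, and those in the second row 53.0% to 57.7%. All Sham arrays lay in the first row and all 5-ASA arrays in the second, so that row and group cannot be told apart for 5-ASA against Sham. Control 3 and Control 6 lay in the second row and the other Control arrays in the first, so row was uneven in the other comparisons too. The number of arrays limits the precision throughout. All 12 colon epithelium markers, among them Epcam, Cdh1, Vil1 and Cdx2, were well above background on all 16 arrays. That is a weak check of the labelled tissue, since 19829 of the 24543 genes tested were so too. In whole tissue, fewer cells of a type and less RNA per cell cannot be told apart.

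Type I interferons are cytokines released by cells that sense viral or misplaced nucleic acid. They bind the receptor formed by Ifnar1 and Ifnar2, whose kinases Jak1 and Tyk2 pass the signal on to the nucleus. There, a complex that contains Irf9 binds a DNA motif, the interferon stimulated response element (ISRE), before the genes described here. In the gut the same genes are held at a low tonic level by signals from the microbiota, and the epithelium also switches them on through type III interferons.

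The promoters of 8 of the 10 genes were found in the RefSeq table of assembly GRCm38.p6, each covering 250 bases before to 50 bases after the annotated transcript start. They were searched on both strands for the core of the ISRE, GAAANNGAAA, whose reverse complement is TTTCNNTTTC, and overlapping matches were counted apart. The core was present in 6 of the 8 genes, against 3.99% of all 27025 genes in the table, counting a gene with several promoters once, and 3.44% of all 32851 promoters. The 200 bases before the start are shown for the 4 genes with a match in that stretch, because they hold the sequence through which this gene group is known to be switched on. Each runs 5′ to 3′ along the gene's own strand, and capitals mark the ISRE core.

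Ifit1, chr19:34640689-34640888 (+): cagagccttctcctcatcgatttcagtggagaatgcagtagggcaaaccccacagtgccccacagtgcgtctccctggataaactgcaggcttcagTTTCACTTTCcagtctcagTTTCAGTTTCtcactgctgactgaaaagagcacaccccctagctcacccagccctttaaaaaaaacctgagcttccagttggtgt

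Ifit3, chr19:34583329-34583528 (+): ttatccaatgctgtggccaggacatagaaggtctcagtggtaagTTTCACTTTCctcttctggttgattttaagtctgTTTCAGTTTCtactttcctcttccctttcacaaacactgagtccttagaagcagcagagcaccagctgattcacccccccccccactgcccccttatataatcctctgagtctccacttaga

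Isg15, chr4:156200819-156201018 (-): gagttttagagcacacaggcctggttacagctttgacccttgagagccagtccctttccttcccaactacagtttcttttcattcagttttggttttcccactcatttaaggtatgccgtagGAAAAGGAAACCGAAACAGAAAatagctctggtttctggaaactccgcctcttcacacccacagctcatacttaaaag

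Rsad2, chr12:26456453-26456652 (-): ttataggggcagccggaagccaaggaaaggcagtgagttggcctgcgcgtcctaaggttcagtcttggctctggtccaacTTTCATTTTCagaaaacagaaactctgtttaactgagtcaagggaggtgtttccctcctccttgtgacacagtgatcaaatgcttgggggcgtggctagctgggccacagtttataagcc

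Ifit1 held matches at positions -104 to -95 and -85 to -76 from the start, and Ifit3, its neighbour on chromosome 19, at -156 to -147 and -122 to -113. The letters of both matches were the same in these promoters. Isg15 had 3 overlapping matches in 1 run between -78 and -57, and Rsad2 a single match at -120 to -111. Ddx58 and Ifih1 had their match after the start, at 3 to 12 and at 33 to 42, and the searched windows of Ifit2 and Irf7 held none. The gamma activated site, TTCNNNGAA, through which interferon gamma acts, was found in the window of 1 of the 8 genes, Ifit2, in 1 of its 2 promoters at -241 to -233, against 9.55% of all genes and 8.3% of all promoters. A match is a run of letters in this window and was not measured as a bound site.

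None of the 10 genes differed between groups in any of the 3 comparisons at an adjusted p of 0.05 from limma, which is the call used throughout. What the genes did show was a spread from mouse to mouse that they largely shared. Sham 1, an untreated mouse, was the highest of 16 mice for 6 genes and among the 4 highest for all 10. Control 6 and 5-ASA 6 were each among the 3 highest for 7 genes.

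**Figure D1:**
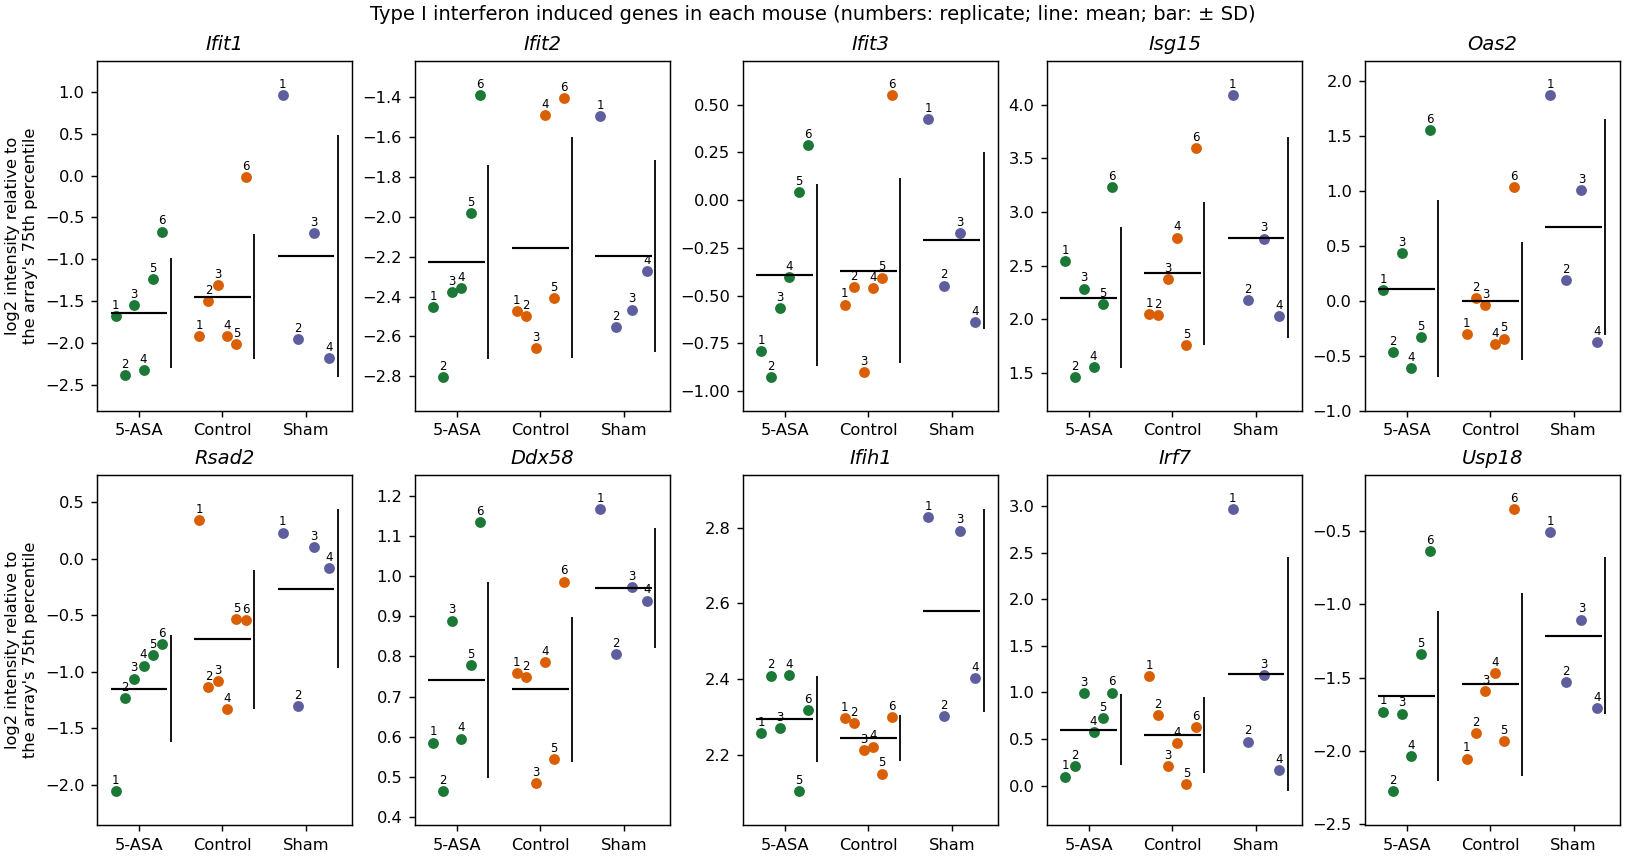
Log2 intensity relative to the array's 75th percentile (vertical axis) of each of the 10 genes in the 5-ASA, Control and Sham mice (horizontal axis). Each point is a mouse with its replicate number, the line is the group mean and the bar ± SD. 5-ASA 6, Control 6 and Sham 1 stand above most mice of their group in most panels, and the groups overlap in all panels but Ifih1 for Control against Sham.

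The IFIT proteins bind foreign RNA, such as RNA that lacks the host's cap methylation, and keep it from being translated. Ifit1 was read at chr19:34723796-34723855 of mm9, the build of the array's annotation. It was at -2.39, -1.62 and -0.67 in 5-ASA mice (lowest, median and highest) and at -2.01, -1.71 and -0.016 in Control mice. Sham 1 to 4 read 0.97, -1.95, -0.69 and -2.18. Sham 1 was the highest of all mice and Sham 4 among the lowest, so the Sham group alone spanned most of the range of 10.2-fold seen over the 16 mice. The Control mean was 0.48 below the Sham mean (log2 difference -0.48, SE 0.56, limma adjusted p = 0.810). Without Sham 1 the sign turned, to 0.16.

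Ifit2 (chr19:34650244-34650303, mm9) was at -2.80, -2.37 and -1.39 in 5-ASA mice and at -2.66, -2.44 and -1.40 in Control mice (lowest, median and highest). The Sham mice 1 to 4 read -1.49, -2.55, -2.47 and -2.27. A mouse of each group, namely 5-ASA 6, Control 6 and Sham 1, stood near -1.4 or -1.5, with Control 4 beside them at -1.49, and the other mice lay at or below -1.98. Group membership took up 0.45% of the variance of Ifit2 over the 16 mice, the smallest share among the 10 genes.

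Ifit3 (chr19:34663105-34663164, mm9) was at -0.93, -0.48 and 0.29 in 5-ASA mice and at -0.90, -0.46 and 0.55 in Control mice (lowest, median and highest). In Sham mice 1 to 4 it was 0.42, -0.45, -0.17 and -0.64. Control 6 was the highest mouse, Sham 1 the second and 5-ASA 6 the third. Mice have a near copy of this gene, Ifit3b, whose probes share runs of at most 8 bases with the Ifit3 probe.

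Isg15 encodes a ubiquitin-like protein that is attached to other proteins in infected cells, and its main probe lies at chr4:155573649-155573708 of mm9. It was at 1.46, 2.21 and 3.23 in 5-ASA mice and at 1.75, 2.21 and 3.59 in Control mice (lowest, median and highest). The 4 Sham values, in replicate order, were 4.09, 2.18, 2.75 and 2.03. The top mouse of each group exceeded its own group's median by over 1 unit, and the medians of 5-ASA and Control mice were the same to 2 decimals. A second Isg15 probe followed the first closely over the 16 mice (r = 0.995).

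Oas2 makes oligoadenylates, the second messenger that activates RNase L, and was read at chr5:121180343-121180402 of mm9. It was at -0.61, -0.12 and 1.55 in 5-ASA mice and at -0.39, -0.17 and 1.03 in Control mice (lowest, median and highest). Among Sham mice the values of replicates 1 to 4 were 1.87, 0.19, 1.01 and -0.38. In Control mice all but Control 6 lay within -0.39 and 0.03, and in Sham mice 2 of 4 lay above 1. The mean difference of Control from Sham was -0.68 (SE 0.46, limma adjusted p = 0.666), and -0.28 without Sham 1.

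Rsad2 encodes viperin, an enzyme that makes a chain-terminating nucleotide, and was read at chr12:27127859-27127918 of mm9. It was at -2.06, -1.004 and -0.75 in 5-ASA mice and at -1.33, -0.81 and 0.34 in Control mice (lowest, median and highest). Sham 1 to 4 read 0.23, -1.30, 0.10 and -0.08. Of the Sham mice, 1, 3 and 4 lay above every 5-ASA mouse and Sham 2 below 5 of the 6, and the highest value of all came from Control 1. Rsad2 departed from the shared ranking: 5-ASA 6 and Control 6 did not stand out.

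The difference of 5-ASA from Sham was the largest of the 30 group differences of the 10 genes, at -0.89 for Rsad2 (SE 0.36, a ratio of 0.540). Its limma p was 0.0252 before adjustment and 0.389 after. It was -0.92 on the first slide and -0.86 on the second, and -0.72 without Sham 1 (limma adjusted p = 0.454).

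The RNA sensors Ddx58, which encodes RIG-I, and Ifih1, which encodes MDA5, detect viral RNA in the cytosol and signal through Mavs to the interferon genes. Both are interferon targets themselves. Ddx58 (chr4:40151893-40151952, mm9) was at 0.47, 0.69 and 1.13 in 5-ASA mice and at 0.49, 0.75 and 0.99 in Control mice (lowest, median and highest). The Sham mice 1 to 4 read 1.17, 0.81, 0.97 and 0.94. The 4 Sham mice lay close together, and the whole range over 16 mice was 1.63-fold. The difference of Control from Sham was -0.25 (SE 0.13, limma adjusted p = 0.567). The second Ddx58 probe correlated with the first at r = 0.783 over the 16 mice. Its means were -2.89, -3.09 and -2.60 in 5-ASA, Control and Sham mice. By that probe all Control mice lay below all Sham mice, with Control 6 at -2.83 and Sham 3 at -2.79 the nearest.

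Ifih1 (chr2:62435507-62435566, mm9) was at 2.10, 2.29 and 2.41 in 5-ASA mice and at 2.15, 2.25 and 2.30 in Control mice (lowest, median and highest). In Sham mice 1 to 4 it was 2.83, 2.30, 2.79 and 2.40. By the brightest probe of each gene, Ifih1 was the only one of the 10 type I interferon induced genes for which groups did not overlap. All 6 Control mice lay below all 4 Sham mice, although Control 6 at 2.3008 and Sham 2 at 2.3018 all but touched. Of all genes tested, 3.32% had no overlap between Control and Sham, and 0.697% none with Control lower.

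The difference of Control from Sham for Ifih1 was -0.34 (SE 0.10, 95% interval -0.56 to -0.12, a ratio of 0.792). Its limma p was 0.00545 before adjustment and 0.561 after. On the 2 slides the difference was -0.30 and -0.37, and without Sham 1 it was -0.25 (limma adjusted p = 0.436). The 5-ASA mice differed from Sham by -0.29 (SE 0.10, limma adjusted p = 0.345). The second Ifih1 probe tracked the first less well (r = 0.522), with means of -3.42, -3.35 and -3.12 in 5-ASA, Control and Sham mice. Both probes had the highest mean in Sham, but they ordered 5-ASA and Control differently. By the second probe Control and Sham overlapped. Control 4 at -3.06 and Control 6 at -3.11 lay above Sham 2 at -3.28 and Sham 4 at -3.32. Group membership took up 49.9% of the variance of Ifih1, the largest share of the 10 genes.

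Irf7 encodes the transcription factor that amplifies interferon alpha production once interferon has been sensed. Its probe spans chr7:148450664-148451014 of mm9. It was at 0.10, 0.65 and 1.00 in 5-ASA mice and at 0.02, 0.54 and 1.17 in Control mice (lowest, median and highest). The 4 Sham values, in replicate order, were 2.97, 0.47, 1.18 and 0.16. Sham 1 lay far above the next mouse, Sham 3, and the range over the other 15 mice was 1.17. The difference of Control from Sham was -0.66 (SE 0.42, limma adjusted p = 0.645), and it shrank to -0.065 without Sham 1.

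Usp18 removes Isg15 from proteins and also blocks the interferon receptor from within, and so limits the response. It was read at chr6:121220874-121220933 of mm9. It was at -2.28, -1.74 and -0.63 in 5-ASA mice and at -2.05, -1.74 and -0.35 in Control mice (lowest, median and highest). Among Sham mice the values of replicates 1 to 4 were -0.51, -1.53, -1.10 and -1.71. Control 6, Sham 1 and 5-ASA 6 were the 3 highest of 16, in this order, and the medians of 5-ASA and Control mice again matched to 2 decimals. Usp18 was high in the mice in which Isg15, the protein tag it removes, was high.

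Set beside the other genes of the array, the antiviral effectors varied widely within groups. The within-group SD of Ifit1 was 0.93, larger than that of 95.3% of the genes tested, whose median was 0.26. For Oas2, Isg15 and Irf7 it exceeded that of 92.1%, 91.5% and 90.3% of genes. Ifit2, Ifit3, Rsad2 and Usp18 lay between 79.2% and 86.1%, whereas Ddx58 and Ifih1 were steadier, with 37.0% and 21.7% of genes below them.

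The comparison of Control with Sham asks what remained of the DSS course at day 28. Of the 10 genes, 9 were lower on average in Control mice, against 50.3% of all genes tested, and 0 were called, with 0.057% of all genes called. The smallest limma adjusted p among them was 0.561. At an unadjusted limma p under 0.05 there was 1 of the 10 (Ifih1, lower), against 3.52% of all genes that were lower at that level. The median of the 10 differences was -0.33, and that of all genes was -0.00174. Much of this rested on 1 mouse: without Sham 1, 6 of the 10 were lower, against 48.9% of all genes, and the median was -0.082.

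The comparison of 5-ASA with Control asks what the drug did beyond DSS. Of the 10 genes, 4 were higher and 6 lower on average in 5-ASA mice, against 50.5% of all genes lower, and 0 were called, with 0% of all genes called. Groups did not overlap for 0 of the 10 and for 0.134% of all genes. At an unadjusted limma p under 0.05 there were 0 of the 10, against 4.09% of all genes, and every limma adjusted p was 0.999. The median difference was -0.047 and that of all genes was -0.00167. The intervals set how large a change could have been missed. They ran from -0.15 to 0.25 for Ifih1 and from -0.23 to 0.27 for Ddx58, but from -1.27 to 0.87 for Ifit1, from -1.08 to 0.62 for Isg15 and from -1.12 to 0.24 for Rsad2. A difference of 1 unit, in either direction, lay outside the intervals of all genes but Ifit1, Isg15 and Rsad2, though that of Oas2 reached 0.996. For Ifit1, Isg15 and Rsad2 a value 1 unit lower in 5-ASA mice lay inside the interval.

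The comparison of 5-ASA with Sham sets treated mice beside mice that had neither DSS nor drug. All 10 genes were lower on average in 5-ASA mice, against 50.9% of all genes. None was called, and 0.057% of all genes were. Groups did not overlap for 0 of the 10 and for 1.8% of all genes. At an unadjusted limma p under 0.05 there were 2 of the 10, Rsad2 and Ifih1, both lower, against 5.13% of all genes that were lower at that level. The median difference was -0.49 and that of all genes was -0.00341. Without Sham 1 the median was -0.14 and 8 of the 10 were lower, against 48.7% of all genes, since Ifit2 and Ifit3 turned to the other side. The comparisons with Sham share the same 4 Sham mice, so Sham 1 enters both.

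**Figure D2:**
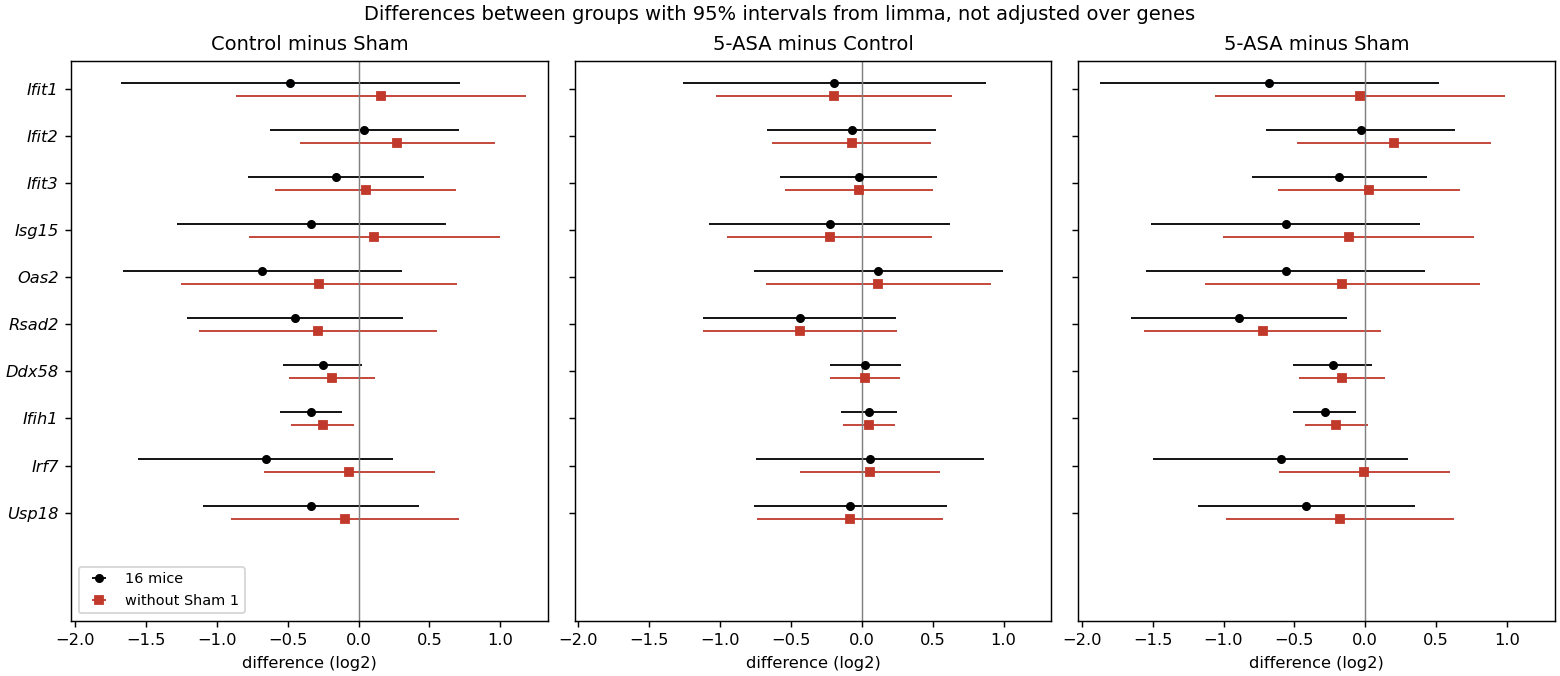
Log2 differences of the 10 genes for Control minus Sham, 5-ASA minus Control and 5-ASA minus Sham (horizontal axes), with limma's 95% intervals, not adjusted over genes. Black circles use 16 mice and red squares 15 mice without Sham 1. Leaving Sham 1 out moves Ifit1 from -0.48 to 0.16 and Irf7 from -0.66 to -0.065 in Control minus Sham, while Ifih1 moves from -0.34 to -0.25.

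Averaged over the 10 genes after centring each on its mean over all mice, Sham 1 stood at 1.22, Control 6 at 0.65, 5-ASA 6 at 0.58 and Sham 3 at 0.41. The other 12 mice lay between -0.59 and -0.027, with 5-ASA 2 the lowest. The diarrhea scores of the 4 high mice were 0 for Sham 1, 1 for Control 6 and 0.5 for 5-ASA 6 and Sham 3. Sham 1 was hybridised on the first slide, and the other high mice on the second.

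Markers of several cell types were not at one common level in the 3 mice highest for these genes, and their part in the result was not tested. Summed over the 8 smooth muscle markers (Acta2, Myh11, Des and others), in units of the array's 75th percentile, the level was 482 in 5-ASA 6, 223 in Control 6 and 826 in Sham 1. That is the lowest of the 16 mice in Control 6 and the highest in Sham 1. Over the groups it ran from 482 to 674 in 5-ASA mice, from 223 to 813 in Control mice and from 413 to 826 in Sham mice. The 9 B cell markers summed to 3.59 in 5-ASA 6, 5.46 in Control 6 and 1.78 in Sham 1, which was the lowest mouse. The group ranges were 1.94 to 3.59 in 5-ASA mice, 2.05 to 38.4 in Control mice and 1.78 to 34.3 in Sham mice, and 1 of the markers, Blk, was not well above background on any 5-ASA array.

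The 10 macrophage and monocyte markers measured, of 11, summed to 38.1 in 5-ASA 6, 40.7 in Control 6 and 23.0 in Sham 1. Their ranges were 22.6 to 38.1 in 5-ASA mice, 25.3 to 54.6 in Control mice and 23.0 to 48.9 in Sham mice. Plasmacytoid dendritic cells are the main producers of interferon alpha, and 7 of their 8 markers were measured. Their sum was 251 in 5-ASA 6, 257 in Control 6 and 254 in Sham 1, within the ranges of 218 to 265 for 5-ASA, 189 to 261 for Control and 245 to 299 for Sham. Siglech and Klk1 are by far the brightest of these markers and make up most of that sum. Averaged after centring each gene, so that all 7 count alike, the markers stood at -0.095 in 5-ASA 6, 0.11 in Control 6 and -0.20 in Sham 1, against 0.60, 0.49 and 0.43 in Sham 2, 3 and 4. The group means of this score were -0.22 in 5-ASA mice, 0.0021 in Control mice and 0.33 in Sham mice. All 7 markers were lower on average in 5-ASA than in Sham mice, by differences from -1.76 to -0.027. The widest gap was that of Spib, with means of -0.26 in 5-ASA and 1.50 in Sham mice. Cox6a2 (-4.63 and -3.72) and Ccr9 (-3.34 and -2.58) followed. Cox6a2 was well above background on only 1 of 6 5-ASA arrays. The 8 neutrophil markers measured, of 10, summed to 116 in 5-ASA 6, 128 in Control 6 and 105 in Sham 1, the lowest of 16 mice. Their group ranges were 116 to 139 in 5-ASA mice, 122 to 137 in Control mice and 105 to 152 in Sham mice. Csf3r is by far the brightest of these markers and makes up most of that sum. As a score centred per gene, neutrophil markers stood at 0.21 in 5-ASA 6, 0.59 in Control 6 and -0.75 in Sham 1. The group means of that score were -0.084 in 5-ASA mice, 0.18 in Control mice and -0.14 in Sham mice. The 9 T cell markers summed to 11.2 in 5-ASA 6, 9.58 in Control 6 and 10.3 in Sham 1, with ranges of 8.66 to 12.05 in 5-ASA, 9.24 to 16.6 in Control and 10.3 to 15.7 in Sham mice, and 1 of them, Cd8a, was not well above background on any 5-ASA array. As a score centred per gene, T cell markers stood at 0.0077 in 5-ASA 6, 0.17 in Control 6 and -1.002 in Sham 1, the lowest mouse. By such scores Sham 1 was also the lowest mouse for macrophage and monocyte, neutrophil and B cell markers, and 5-ASA 6 and Control 6 were not.

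**Figure D3:**
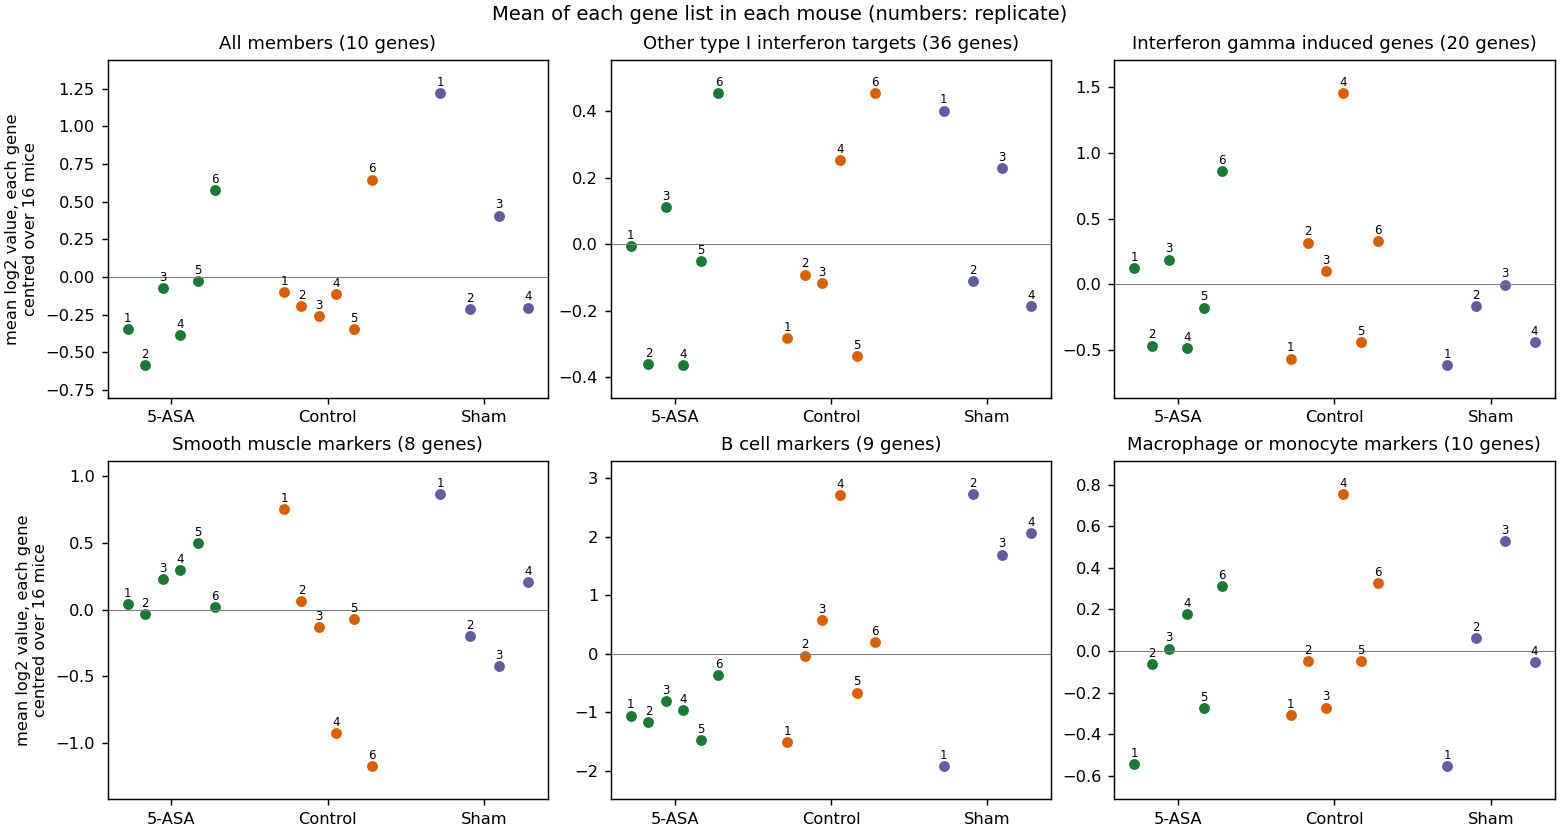
Mean log2 value of 6 gene lists in each mouse, each gene centred on its mean over the 16 mice (vertical axes), for 5-ASA, Control and Sham mice (horizontal axes). Numbers are replicates. 5-ASA 6, Control 6 and Sham 1 are high for the 10 genes and for other type I interferon targets, whereas for interferon gamma induced genes Sham 1 is the lowest mouse at -0.62 and Control 4 the highest at 1.46.

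The 10 genes varied together over the mice. Pearson's r was positive for all 45 pairs, with a median of 0.689 and a range of 0.108 to 0.929 over 16 mice. Spearman's rho had a median of 0.503. By permutation with 100000 resamples, 31 of the 45 pairs had a Benjamini-Hochberg adjusted p under 0.05 for r and 19 for rho. The share of pairs of other genes that would pass was not measured, so these counts are not shown to be particular to the 10 genes. Without the 2 mice farthest from the median of the first gene of a pair, the median r was 0.554 and 43 pairs were positive, and without Sham 1 it was 0.481.

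The relation was also present within groups and slides. With each group centred on its own mean the median r was 0.640. Within the 8 mice of the first slide it was 0.852 and all 45 pairs were positive, and within the 8 of the second slide it was 0.554 with 41 positive. The closest pair was Isg15 with Usp18 (r = 0.929, rho = 0.859, permutation p = 1e-05 for r, the smallest these resamples can give, adjusted p = 0.00015). Its r was 0.923 without Sham 1. Ifit1 was nearly as close to Isg15 (r = 0.917), to Oas2 (r = 0.899) and to Usp18 (r = 0.895).

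Rsad2 and Ifih1 were the least tied to the rest. Of the 9 pairs each gene enters, 2 passed for Rsad2 and 3 for Ifih1 at an adjusted permutation p under 0.05 for r, and 0 passed for rho in either. Their median r over those pairs was 0.413 and 0.501, and without Sham 1 it was 0.20 and 0.15. For both genes the relation with the others rested on Sham 1 to a large extent. The values for the RNA sensors with each other were r = 0.501 and rho = 0.450 (permutation p = 0.0472, adjusted p = 0.0624).

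A search over the other 24463 genes that had a value in all 16 mice, for those most like the mean of the 10, by Pearson's r over the 16 mice, was made as a description. The first was Oasl2, an oligoadenylate synthetase-like gene, at r = 0.943 (0.894 over 15 mice without Sham 1). It was at 0.81, 1.43 and 2.88 in 5-ASA mice and at 0.73, 1.49 and 2.34 in Control mice (lowest, median and highest). In Sham mice it lay between 1.28 and 3.79. Its highest mice were Sham 1 at 3.79 and 5-ASA 6 at 2.88.

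Next came Apol9b (r = 0.904), Xaf1 (0.902), Ifit3b (0.901), Lgals3bp (0.896), Ifi44 (0.892), Apol9a (0.891), Rtp4 (0.889), Cmpk2 (0.888) and Oas3 (0.876). Apol9a and Apol9b are near-identical copies whose probes may read each other. Without Sham 1 these 9 kept an r between 0.7998 and 0.931, and Cmpk2, a mitochondrial nucleotide kinase encoded beside Rsad2, then ranked first. Of the 10, 8 belong to the list of other type I interferon targets, which was drawn up with earlier results of these data known. Over all genes 12 had an r above 0.8. The ISRE core was found in the promoters of 4 of the 9 with an entry: Apol9a, Apol9b, Ifit3b and Oas3.

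**Figure D4:**
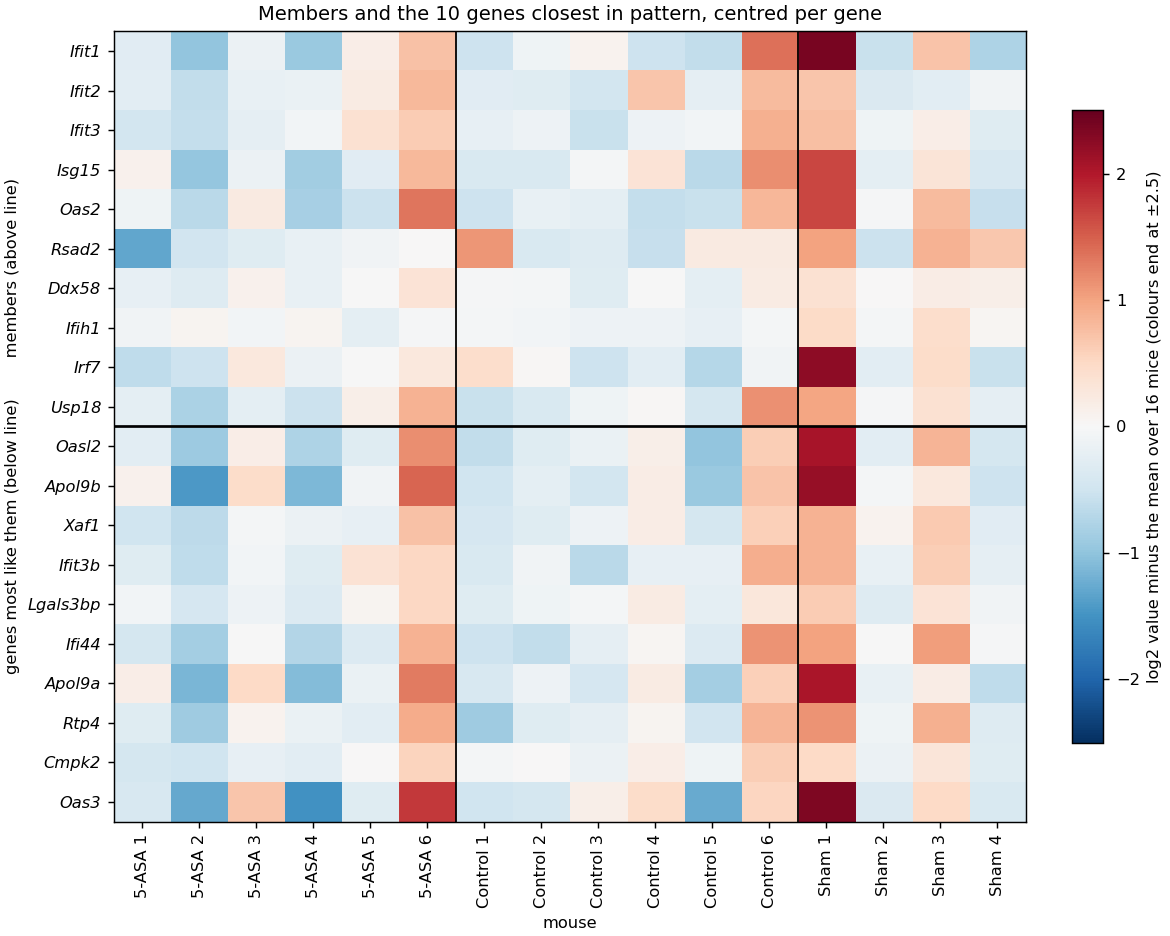
Log2 value minus the gene's mean over the 16 mice (colour scale, ending at ±2.5) for the 10 genes above the line and the 10 genes closest in pattern below it, in each 5-ASA, Control and Sham mouse. The columns of 5-ASA 6, Control 6 and Sham 1 are red in most rows, and Rsad2, Ifih1 and Irf7 depart from the others in Control 6 or 5-ASA 6.

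The rest of the pathway was described by lists. No gene of any list was called in any comparison, by limma at an adjusted p of 0.05. The probes of Ifnk, Tyk2, Irf5, Ciita and Ifi44l, named below, lie in the outer 12 spot rows at either edge of the array. No gene was called in the comparisons with Sham once those rows were left out. Of 18 genes for type I and III interferons themselves, 14 were found by name on the array and 9 were bright enough to test. Ifnb1, the first interferon made by most cells, and Ifne were among the 5 that were too dim. For Control against Sham, 5 of the 9 were higher and 4 lower, with a median of 0.041. The 2 with the smallest p were Ifnk, at -0.24 (SE 0.13, limma adjusted p = 0.588), and Ifna11, at 0.34 (SE 0.26, limma adjusted p = 0.699). Without Sham 1 the median was 0.015 and Ifna11 was at 0.21. For 5-ASA against Control, 4 were higher and 5 lower, with a median of -0.035. The 2 with the smallest p were Ifna11, which was not well above background on any 5-ASA array and is given no difference, and Ifnl3, a type III interferon, at -0.18 (SE 0.11). For 5-ASA against Sham, 3 were higher and 6 lower, and no median is given because it fell on Ifna11. Like Ifna11, Ifna2 was not well above background on any 5-ASA array. The directions of these 2 genes in both 5-ASA comparisons thus rest on readings near background. Ifna12 was at 1.04 (SE 0.52, limma adjusted p = 0.484) and Ifna5 at -0.29 (SE 0.21), or -0.17 without Sham 1. The values of Ifna12 were spread widely in 5-ASA mice, at -4.43, -3.93 and -1.33 (lowest, median and highest), against a Sham median of -4.33.

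All 18 receptor and signalling genes were tested. For Control against Sham, 7 were higher and 11 lower (median -0.055), led by Ifnar1 at -0.21 (SE 0.12, limma adjusted p = 0.585; -0.33 without Sham 1) and Jak1 at -0.12 (SE 0.09). For 5-ASA against Control, 3 were higher and 15 lower (median -0.043), led by Tyk2 at 0.13 (SE 0.09) and Usp25, a deubiquitinase, at -0.13 (SE 0.09). For 5-ASA against Sham, 5 were higher and 13 lower (median -0.082). Ifnar1, the receptor chain that binds Tyk2, was at -0.25 (SE 0.12, limma adjusted p = 0.447), and Irf5, a transcription factor downstream of Toll-like receptors, at -0.76 (SE 0.39, limma adjusted p = 0.503). Without Sham 1, Irf5 was at -1.17 (limma adjusted p = 0.223).

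Of 14 further genes that sense or process nucleic acid, 6 were higher and 8 lower in Control against Sham (median -0.025). Cgas, the cytosolic DNA sensor, was at -0.010, 0.26 and 0.46 in Control mice (lowest, median and highest), and between -0.72 and -0.37 in Sham mice. The groups did not overlap, and the difference was 0.72 (SE 0.17, limma adjusted p = 0.561). Dhx58, the relative of the RNA sensors known as LGP2, was at -0.38 (SE 0.24). For 5-ASA against Control, 6 were higher and 8 lower (median -0.042), led by Ifi204 at -0.35 (SE 0.18) and the exonuclease Trex1 at -0.17 (SE 0.09). For 5-ASA against Sham, 5 were higher and 9 lower (median -0.075), with Cgas at 0.57 (SE 0.17, limma adjusted p = 0.339) and Dhx58 at -0.50 (SE 0.24, limma adjusted p = 0.456).

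Of 36 other type I interferon targets, 10 were higher and 26 lower in Control against Sham, with a median of -0.15, or -0.073 without Sham 1. Those with the smallest p were higher: Gm4951, an interferon inducible GTPase, at 1.27 (SE 0.48, limma adjusted p = 0.561) and Ifitm3, a membrane protein that blocks viral entry, at 0.36 (SE 0.15). For 5-ASA against Control, 16 were higher and 20 lower (median -0.015), led by Oasl1 at -0.39 (SE 0.22) and Samd9l at -0.17 (SE 0.09). For 5-ASA against Sham, 9 were higher and 27 lower (median -0.19, and -0.087 without Sham 1). There Ifitm3 was at 0.30 (SE 0.15, limma adjusted p = 0.472). The other gene with the smallest p, Ifi44l, is given no difference. Ifi44l was not well above background on any Sham array and was so on 3 of 6 5-ASA arrays and 1 Control array. It thus passed the filter mainly through the 5-ASA mice.

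Interferon gamma is a cytokine made by T cells and NK cells. Of 20 genes it induces, 16 were higher and 4 lower in Control against Sham, with a median of 0.33, or 14 and 6 with a median of 0.31 without Sham 1. The 10 type I genes had a median of -0.33 in that comparison, and this difference between the lists was not tested. Cxcl9, a chemokine that recruits T cells, was at 2.22 (SE 0.91, limma adjusted p = 0.561) and Ifng itself at 1.78 (SE 0.74), with Ifng well above background on 4 of 6 Control arrays and 1 of 4 Sham arrays. For 5-ASA against Control, 6 were higher and 14 lower (median -0.13), led by the chemokine Cxcl10 at -0.82 (SE 0.56) and Ciita, the activator of class II genes, at -0.52 (SE 0.37). For 5-ASA against Sham, 16 were higher and 4 lower (median 0.26). Without Sham 1, 14 were higher and 6 lower (median 0.14). Those with the smallest p were Ciita at -0.91 (SE 0.42, limma adjusted p = 0.445) and Cxcl9 at 1.88 (SE 0.91, limma adjusted p = 0.469).

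The mice with the highest level differed between the lists. Over the 20 interferon gamma induced genes, centred per gene, 5-ASA 6 stood at 0.86, Control 6 at 0.33 and Sham 1 at -0.62. Over the 36 other type I targets the same mice stood at 0.45, 0.46 and 0.40. Sham 1 was thus the lowest of 16 mice on the interferon gamma list and the highest on the 10 type I genes.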

How the data were processed

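Expression was measured in 16 mice, 1 array each, on 1-colour Agilent microarrays from 0.2 ug of RNA labelled with Cy3, per the labels' protocols. The scanner files hold spot intensity after background subtraction and detrending by Agilent Feature Extraction 10.10.1.1, with no scaling across arrays, per the file headers. The uncorrected spot mean and local background intensity served 1 alternative, and the software's flags (well above background, saturated, outlying) are scores of 0 or 1, per the file headers. The authors' deposited value table states no scale, and it matched log2 values scaled on the 75th percentile and centred on the Sham median (r from 0.992 to 0.998 per array). Its scale and centring are thus inferred, and it served as an alternative.

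For the values given here, outlying spots and control probes were dropped, spots of a probe were averaged, and the 75th percentile of its array was subtracted from the log2 intensity. A probe had to be well above background on 4 or more of the 16 arrays, which 35087 were, and the brightest such probe stood for its gene. Through the RefSeq table of GRCm38.p6, 1710 symbols were updated. A single limma model (version 3.58.1, R 4.3.3) held the 3 groups and no covariate, with Benjamini-Hochberg adjustment over 24543 genes. Slide and array row were alternatives, as were other background correction, scaling, filters, probe averaging, array weights, the replicate number as a block, and leaving out each mouse. The fit was tested on simulated data. The members and lists were chosen with earlier results of these data known. Named genes were the 10 members, the 2 with the smallest p per pathway list and comparison, and the 10 most like the members' mean.

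Mice with the same replicate number were not taken as pairs. Over 14 such pairs the correlation of their deviations from the group means ran from -0.21 to 0.61, with 8 over 0.1. The p-values measure the spread between these mice.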

Additional observations from a re-analysis of the deposited data

Results flagged for a closer look

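In 5 of the 30 combinations of a gene and a group, 1 mouse stood apart from the others of its group by Dixon's test. The test flags about 1 group in 20 by chance. The genes varied together in the same mice, so the 30 are not independent and 5 cannot be judged against that rate. Control 6 stood apart for 4 genes. It read -0.016 for Ifit1 where the next Control mouse read -1.31. For Ifit3 it read 0.55, with the next at -0.41. For Oas2 it read 1.03, with the next at 0.026. For Usp18 it read -0.35, with the next at -1.47. In the other direction, 5-ASA 1 read -2.06 for Rsad2, below the next 5-ASA mouse at -1.23. Sham 1 was not singled out by this test for any gene, and the critical value is higher for groups of 4 mice than for groups of 6.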

How the results depend on the processing

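No member was called under any of the 30 settings run for Control and Sham, the 30 for 5-ASA and Control or the 29 for 5-ASA and Sham, and the smallest limma adjusted p over these was 0.229, 0.635 and 0.121. The direction of single members was less stable: 16 of 300, 32 of 300 and 11 of 290 values changed sign.

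The count of all genes called moved more. Without a filter on dim probes it was 2952 of 34947 for 5-ASA against Control. Of these, 2888 were among the 10404 genes whose probes did not pass the filter, and the median difference of those 10404 was 0.65, against -0.0016 for genes that passed. With only genes well above background on all arrays it was 1 for Control against Sham and 3 for 5-ASA against Sham. On the first slide alone these were 4 and 2. On the second slide alone they were 1 and 4, with 1 for 5-ASA against Control. With array row as a covariate, 5-ASA had 7 calls against Control and 7 against Sham, and 1 was called for Control against Sham in the first row alone. Without the outer 12 spot rows both comparisons with Sham had 0 of 23294. Leaving out each mouse gave 10 to 15, 0 to 0 and 11 to 26, the highest without 5-ASA 4.

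For Control minus Sham, Ifit2 turned to -0.52 on the first slide, -0.021 with array row as a covariate and in the first row alone, and -0.065 with array weights. On the second slide Ifit1 was 0.12, Ifit3 0.30, Isg15 0.31 and Usp18 0.16. For 5-ASA minus Control, Ddx58 was -0.018 and Irf7 -0.28 on the first slide, Ifit3 was 0.082 on the second, Oas2 was -0.38 with array row and in the second row alone, and Ifih1 was -0.0075 with the probes averaged. With array weights Ifit1 was 0.038, Ifit2 0.24, Ifit3 0.16, Isg15 0.092 and Usp18 0.24. For 5-ASA minus Sham, the second slide had Ifit1 at 0.024, Ifit2 at 0.46, Ifit3 at 0.38, Irf7 at 0.091 and Usp18 at 0.071, and array weights had Ifit2 at 0.18 and Ifit3 at 0.050. The cause was not tested.

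Leaving out 1 mouse at a time, the sign changed within these ranges. For Control minus Sham they were -0.89 to 0.16 for Ifit1, -0.11 to 0.28 for Ifit2, -0.34 to 0.050 for Ifit3 and -0.58 to 0.11 for Isg15, with the upper end always without Sham 1. For 5-ASA minus Control they were -0.39 to 0.090 for Ifit1, -0.24 to 0.079 for Ifit2, -0.16 to 0.16 for Ifit3, -0.43 to 0.0060 for Isg15, -0.17 to 0.32 for Oas2, -0.055 to 0.078 for Ddx58, -0.047 to 0.18 for Irf7 and -0.28 to 0.16 for Usp18. For 5-ASA minus Sham they were -0.20 to 0.20 for Ifit2 and -0.33 to 0.028 for Ifit3. The median of the members ran from -0.53 to -0.082, from -0.21 to 0.078 and from -0.69 to -0.14 in the 3 comparisons.

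With the replicate number as a block, Ifit2 turned to -0.16 in Control minus Sham and no member was called. Of the 16 mice, 3 correlated best with a mouse of their own number. Quantile scaling, normexp background correction, the deposited value table and slide as a block turned no member. Signal over background did not limit the members, which were bright on all arrays, and it did limit Ifna2, Ifna11, Ifi44l and Ifng.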
